A study of Saccharomyces cerevisiae with 5 samples.

Results

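The effect of deleting HDA1 in yeast cells that already lack BDF1 was read from 2 of the 5 oligonucleotide arrays of the series, those whose labels set the double mutant bdf1Δhda1Δ against bdf1Δ. Both strains are Saccharomyces cerevisiae, both carry the bdf1Δ deletion, and both had been given salt, 0.5 mol/L NaCl for 45 min, before total RNA was isolated. On array 1 bdf1Δhda1Δ was labelled with Cy5 and bdf1Δ with Cy3, and on array 2 the dyes were exchanged. The other 3 arrays set bdf1Δ+HAL2 against bdf1Δ, on 2 arrays with exchanged dyes, and bdf1Δ against W303, the laboratory strain without the deletion, on 1 array, all under the same salt. No unsalted culture is among the 5 arrays, so every value compares strains under salt. Per the labels, the exchanged arrays repeat 1 test and 1 control RNA, so the pair counts as 1 replicate and no p-value was computed. Each SD below is the spread between the 2 arrays and covers technical variation only. The labels do not say how many cultures or clones stand behind a strain. RNA came from whole cultures, so fewer cells with a transcript and less of it per cell cannot be told apart.

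Hda1 is a class II histone deacetylase that works in a complex with Hda2 and Hda3 and is known for repressing genes, together with the Tup1-Cyc8 corepressor and near chromosome ends. Bdf1 is a bromodomain protein that binds acetylated histone tails and works with TFIID, the factor that starts transcription at many promoters, and cells without it grow poorly in salt. Yeast takes up iron by 2 main routes, one that captures siderophores made by other microbes and one that reduces ferric iron at the surface and imports it with copper-dependent Fet3 and its partner Ftr1, and both are switched on by Aft1 and Aft2 when iron is short.

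The deleted genes could not be checked on these arrays. HDA1 (YNL021W) gave net intensities, spot minus local background in arbitrary units, of 15 in bdf1Δhda1Δ and 23 in bdf1Δ on array 1, and of −23 and 187 on array 2. Of its 3 spots, none exceeded background by 2 background SDs in bdf1Δhda1Δ on either array, and in bdf1Δ none did on array 1 and 2 did on array 2. HDA1 was too dim for a ratio in either reading. BDF1, deleted in both strains, was not above background in either of them on either array. Its paralogue BDF2 was measured at a log2 ratio of 0.37 ± 0.02, and the partner subunits HDA2 and HDA3 at 0.31 ± 0.24 and −0.04 ± 0.20 in the wider set of spots described next.

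The image software had found only 32.9% of the 19164 gene spots on array 1 and 40.3% on array 2, against 58.5% to 72.9% on the other 3 arrays. Genes were therefore read in 2 ways. In the first set, 2074 genes had at least 2 of their 3 spots found and above background in at least 1 strain on both arrays. In the wider set, spots marked as not found were kept where at least 1 strain exceeded background, which gave 4655 of the 6388 gene probes. Signal above background was seen for bdf1Δhda1Δ in 75.7% of gene spots on array 1 and 52.5% on array 2, and for bdf1Δ in 42.8% and 75.8%, so on each array the Cy5 channel was the one with more spots above background. Between the arrays, log2 ratios of the first set correlated across genes with a Pearson r of 0.872, and the median SD was 0.0815. For the wider set r was 0.609 and the median SD 0.113. Control spots printed 144 times gave mean log2 ratios of −0.01 and −0.13 for ACT1 (actin) and of −0.05 and 0.04 for RPL32 on arrays 1 and 2. The control named UB14 gave 0.25 and 0.31, and TUB4 had no usable spot.

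A gene was called higher or lower when its ratio passed 2-fold in the same direction on both arrays, the rule the labels state. In the first set 22 genes were higher in bdf1Δhda1Δ, 1.06% of those measured, and 13 were lower, 0.627%. No gene passed 2-fold in opposite directions, and 11 passed on 1 array only. In the wider set 36 genes were higher, 0.773%, and 13 lower, 0.279%. All 35 genes called in the first set were called in the wider set too, which added 14 higher genes and no lower one. The median gene stood at a log2 ratio of 0.01, and the range from the 5th to the 95th percentile was −0.474 to 0.475. Most transcripts measured thus differed little between the strains. Just inside the threshold were PHM7 (−1.02 and −1.01 on arrays 1 and 2), URA8 (1.02 and 1.02) and YNL134C (1.10 and 1.02). Just outside it were BTN2 (1.05 and 0.99), ZRT1 (0.96 and 0.99) and TSL1 (−0.96 and −0.97).

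**Figure D1:**
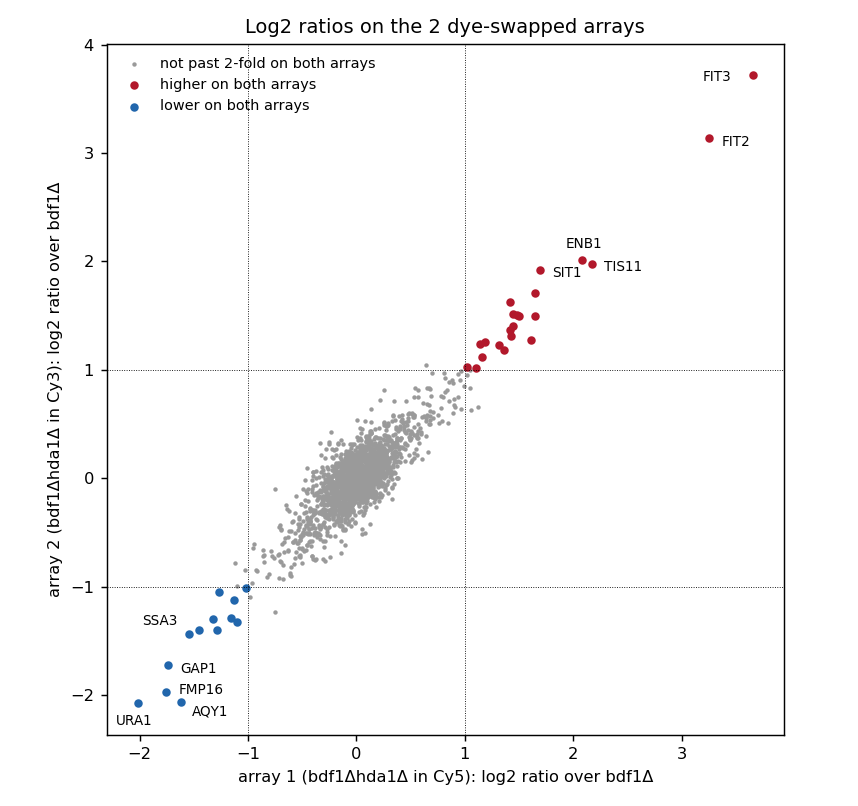
Log2 ratio of bdf1Δhda1Δ over bdf1Δ on array 1 (horizontal) and array 2 (vertical) for the 2074 genes of the first set. Dotted lines mark 2-fold. The 22 higher genes (red) and 13 lower genes (blue) lie near the diagonal, with FIT3 and FIT2 farthest out at the top and URA1 at the bottom.

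Genes on 5 lists tied to iron and copper were 13 of the 22 higher genes of the first set. The lists also hold regulators and Mac1 targets, and were chosen with earlier results of these data known. Of the 47 genes on the 5 lists, 20 were measured in the first set. None of these was lower, and 19 were above 0, with a median log2 ratio of 1.43 against 0.01 for all measured genes. The 13 were 59.1% of the 22 higher genes, while 1.06% of all genes of the first set were higher. In the wider set 39 of the 47 were measured, 16 were higher and none lower, 32 were above 0 and their median was 0.70. The 16 were 44.4% of the 36 higher genes there, while 0.773% of all genes of the wider set were higher. The remaining 8 genes of the lists were measured in neither set. Several higher members entered through bdf1Δhda1Δ, the strain where they are bright. With both strains required above background, 16 of the 47 were measured in the first set and 9 were higher, without ENB1, SIT1, TIS11 and FRE7, and 18 and 9 in the wider set, with medians of 1.29 and 1.01. The counts and medians of these lists are thus a description of the members that could be read.

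Siderophore uptake had the largest ratios, with 4 of 4 genes measured in the first set higher and a list median of 2.62. The median was 1.96 over 6 genes in the wider set, and of the 4 only FIT2 and FIT3 could be measured with both strains required above background. FIT3 (YOR383C), a cell wall mannoprotein that helps retain siderophores, gave net intensities of 20403 in bdf1Δhda1Δ and 1141 in bdf1Δ on array 1, and of 25917.5 and 2220 on array 2. Its log2 ratio was 3.69 ± 0.04, a 12.9-fold difference and the largest of the genes measured. FIT2 (YOR382W), a mannoprotein of the same kind, gave 12792 against 998.5 and 13777.5 against 1705, a ratio of 3.19 ± 0.08. In both genes bdf1Δhda1Δ was far above bdf1Δ on both arrays, and both strains were well above background. FIT2 and FIT3 are direct neighbours in the R64 gene order. FRE5, the next gene beyond FIT3, was at 0.10 ± 0.41 in the wider set.

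The siderophore transporters followed. ENB1 (YOL158C), the enterobactin transporter, gave 1357 against 70.5 on array 1 and 1805.5 against 421.5 on array 2, a log2 ratio of 2.05 ± 0.05. SIT1 (YEL065W), a transporter of ferrioxamine, gave 1744.5 against 333 and 2493.5 against 659, a ratio of 1.81 ± 0.16. In bdf1Δ only 1 of 3 spots of each was above background on array 1, so the low side of these ratios is less well measured than the high side. ARN1 (YHL040C), which carries ferrichrome, was measured in the wider set only, with 903 against 69 and 1075 against 251 and a ratio of 1.84 ± 0.20. None of its spots was above background in bdf1Δ on array 1. FRE3, a reductase of siderophore-bound iron, was at 0.13 ± 0.08 in the wider set and was not called.

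In the reductive route 3 of 4 measured genes were higher, with a median of 1.41. FET3 (YMR058W), the multicopper oxidase of high-affinity iron uptake, gave 8979 against 2877 on array 1 and 10148 against 4495 on array 2, a log2 ratio of 1.42 ± 0.03. Its permease partner FTR1 (YER145C) gave 2507.5 against 709 and 2769 against 1115.5, a ratio of 1.39 ± 0.04. The 2 partners therefore differed by 2.68-fold and 2.62-fold. FRE1 (YLR214W), the main surface reductase of ferric and cupric ions, gave 4149 against 1056 and 4835 against 1497, a ratio of 1.68 ± 0.05. CCC2, the copper pump that loads Fet3 in the secretory pathway, was at 0.64 and 1.04 on the arrays and passed on 1 only. All 7 genes on the list for this route were measured in the wider set, and 5 were higher there. The 5 include the low-affinity transporter FET4, which the list holds beside the high-affinity genes. FRE2 (YKL220C), a second ferric reductase, gave 896 against 147 and 988.5 against 398, a ratio of 1.31 ± 0.08. No spot of FRE2 was above background in bdf1Δ on array 1. FET4 (YMR319C), the low-affinity iron transporter, gave 1171 against 282 and 1824 against 831, a ratio of 1.17 ± 0.03. ATX1, the copper chaperone of this route, was at 0.30 ± 0.05.

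On the list for iron inside the cell 3 of 8 measured genes were higher, with a median of 0.72. TIS11 (YLR136C, also called CTH2), which binds and destabilises mRNAs of iron-using proteins when iron is short, gave 1601 against 139 on array 1 and 2032.5 against 509.5 on array 2, a log2 ratio of 2.07 ± 0.14. None of its 3 spots was above background in bdf1Δ on array 1. HMX1 (YLR205C), the haem oxygenase, gave 3526.5 against 1047 and 4599 against 1688.5, a ratio of 1.48 ± 0.05. COT1 (YOR316C), a vacuolar metal transporter, gave 2439 against 840 and 2949.5 against 1317.5, a ratio of 1.19 ± 0.07. In each of these 3 genes bdf1Δhda1Δ was the higher strain on both arrays. The vacuolar iron exporters FET5 and FTH1 were at 0.66 ± 0.07 and 0.65 ± 0.04, ECM4 (a glutathione transferase) at 0.78 ± 0.10 and SMF3 (a vacuolar metal exporter) at 0.25 ± 0.03, none past 2-fold. CCC1, which moves iron into the vacuole, was the only member of the first set below 0, at −0.43 ± 0.01. Further members were measured in the wider set only, none past 2-fold on both arrays. They were FRE5 at 0.10 ± 0.41, the vacuolar reductase FRE6 at 0.36 ± 0.48, the mitochondrial iron carriers MRS4 at 0.31 ± 0.15 and MRS3 at −0.05, the vacuolar zinc transporter ZRC1 at −0.02 and CTH1, the relative of TIS11, at −0.02.

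The regulators of this system were dim, and none was measured in the first set. Of 6 measured in the wider set none was called. AFT1, the activator of both uptake routes, was at 0.70 ± 0.09, with net intensities of 474 against 94 on array 1 and 550 against 441.5 on array 2. Its paralogue AFT2 was at 0.03. Of the proteins that signal iron status to Aft1, BOL2 was at 0.55 ± 0.23, GRX3 at 0.08, FRA1 at −0.06 and GRX4 at −0.93 ± 0.28. GRX4 was thus the lowest of these regulators, but its spots in bdf1Δhda1Δ were not above background on array 2.

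Copper genes were among the higher genes too. Of 4 measured genes for copper uptake or under the copper sensor Mac1, 3 were higher, with a median of 1.47. CTR1 (YPR124W), the high-affinity copper transporter, gave 6267.5 against 1755.5 on array 1 and 6235.5 against 2868.5 on array 2, a log2 ratio of 1.44 ± 0.24. FRE7 (YOL152W), a reductase expressed when copper is low, gave 1617 against 350.5 and 2643.5 against 924, a ratio of 1.5 ± 0.02, with no spot above background in bdf1Δ on array 1. REE1 (YJL217W) gave 2030.5 against 522 and 3344 against 1114.5, a ratio of 1.52 ± 0.15. IRC7, a cysteine desulphydrase, was at 0.79 ± 0.16 and did not pass. The vacuolar copper transporter CTR2 was at 0.58 ± 0.05 and MAC1 itself at −0.15 ± 0.10 in the wider set.

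**Figure D2:**
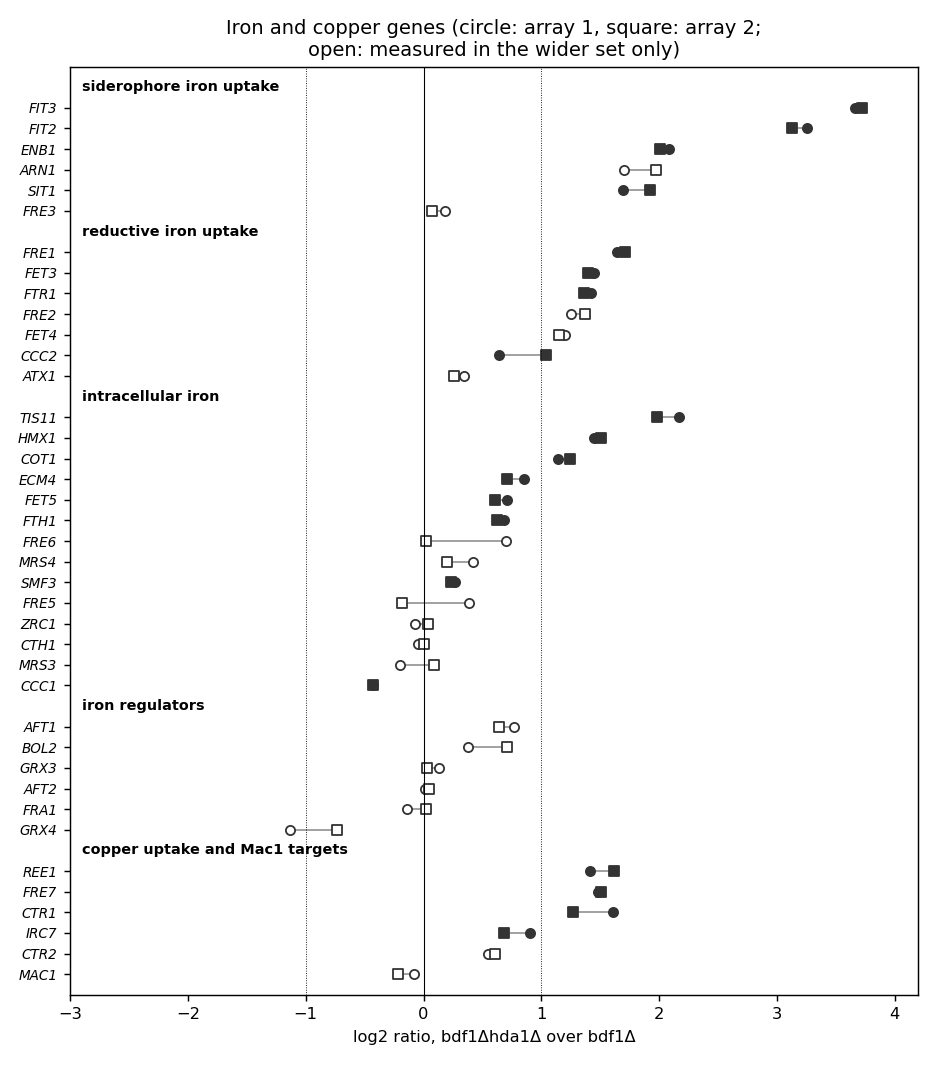
Log2 ratio of bdf1Δhda1Δ over bdf1Δ for each measured gene of the 5 iron and copper lists, with array 1 as circles, array 2 as squares and open symbols for genes measured in the wider set only. Dotted lines mark 2-fold. All 16 called genes lie to the right of 1 on both arrays, while the regulators lie between −1.13 and 0.77.

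Zinc and iron-using pathways were set beside these. ZRT1, the high-affinity zinc transporter, gave 3210 against 1273.5 and 3636.5 against 1877, a ratio of 0.98 ± 0.02 that stopped just short of 2-fold. It was the highest of 3 zinc genes measured in the first set, and ZRT2 was the lowest at −0.33. In the wider set 6 of 8 zinc genes were above 0 and 2 below, with a median of 0.17 and none called. Of 8 measured iron-sulphur enzymes 1 was lower, none was higher, and the median was −0.36. ACO1 (YLR304C), aconitase of the tricarboxylic acid cycle, gave 2482 against 4810 on array 1 and 2557.5 against 7296.5 on array 2, a log2 ratio of −1.21 ± 0.16. ILV3 of branched-chain amino acid synthesis was at −0.75 and GLT1, glutamate synthase, at −0.57, while DRE2 stood highest in the list at 0.33. The 4 measured genes of iron-sulphur cluster assembly had a median of 0.21 and none was called. Of 11 genes of haem synthesis and haem proteins none was called. Their median was 0.13, and they ran from CCP1, mitochondrial cytochrome c peroxidase, at −0.85 to CYC1, cytochrome c, at 0.75.

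Mitochondrial energy genes lay mostly below 0. Beside these and the lists that follow, 1005 of all 2074 genes of the first set were below 0, 0.627% were lower and 1.06% higher. Of 17 measured tricarboxylic acid cycle genes 14 were below 0, 2 were lower and none was higher, with a median of −0.33. Of 28 respiratory chain and ATP synthase genes 24 were below 0, with 1 lower and a median of −0.26. SDH1 (YKL148C), the flavoprotein of succinate dehydrogenase and a member of both lists, gave 651.5 against 1273 on array 1 and 710.5 against 2020 on array 2, a ratio of −1.12 ± 0.00. It was −1.07 by print-tip loess, which normalizes each printing block on its own, and was then no longer called. Apart from ACO1 and SDH1, the lower values in these lists were small, such as −0.68 for QCR10 and −0.58 for COR1, both subunits of the cytochrome bc1 complex. Mitochondrial ribosomal proteins did not share that position, with 17 of 20 above 0 and a median of 0.09.

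The lowest ratio of all belonged to pyrimidine synthesis. URA1 (YKL216W), dihydroorotate dehydrogenase, gave 1269.5 in bdf1Δhda1Δ and 4933.5 in bdf1Δ on array 1, and 1246.5 and 6531 on array 2. Its log2 ratio was −2.05 ± 0.04, 4.14-fold lower in bdf1Δhda1Δ. Of the 15 measured pyrimidine genes 11 were below 0, 1 was lower and 1 higher, and the median was −0.40. URA4 was at −0.81 ± 0.17 and URA2, which catalyses the first steps of the pathway, at −0.72 ± 0.01. URA3, by contrast, gave 4972 against 2197.5 and 6754 against 3922.5, a ratio of 0.95 ± 0.02, so genes of 1 pathway stood on opposite sides of 0. URA3 is also a common marker gene for yeast deletions, and the labels do not say which markers the strains carry. The higher gene was URA8 (YJR103W), the lesser of the CTP synthases, with 2424.5 against 923 and 2589 against 1432 and a ratio of 1.02 ± 0.00. By print-tip loess URA8 was at 0.97 and was not called.

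Nitrogen uptake genes were also among the lower genes. GAP1 (YKR039W), the general amino acid permease, gave 819 against 2714 on array 1 and 983 against 4202.5 on array 2, a log2 ratio of −1.74 ± 0.01. DIP5 (YPL265W), the permease of acidic amino acids, gave 664.5 against 1614 and 828 against 2624, a ratio of −1.31 ± 0.02. These were 2 of the 10 amino acid permeases measured, whose median was −0.16 and whose highest member, GNP1, was at 0.08. AGP1, a broad permease, was at −1.04 ± 0.13 in the wider set, past 2-fold on 1 array. Of 13 measured genes under nitrogen catabolite repression, the system that shuts off use of poor nitrogen sources, 10 were below 0 with a median of −0.48, which was −0.24 by print-tip loess. GAP1 was the only one called. GLN1, glutamine synthetase, was at −0.76 ± 0.21 and PUT1, proline oxidase, at 0.38.

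Amino acid synthesis under the activator Gcn4 lay mostly below 0, at 28 of 35 genes, with 1 lower and a median of −0.22. That gene was ARG1 (YOL058W), argininosuccinate synthetase, with 2616 against 5576 on array 1 and 2354 against 7006 on array 2 and a ratio of −1.22 ± 0.09. HIS4 was at −1.12 and −0.79 and passed on 1 array. Purine synthesis had a median of −0.19 over 14 genes with none called.

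**Figure D3:**
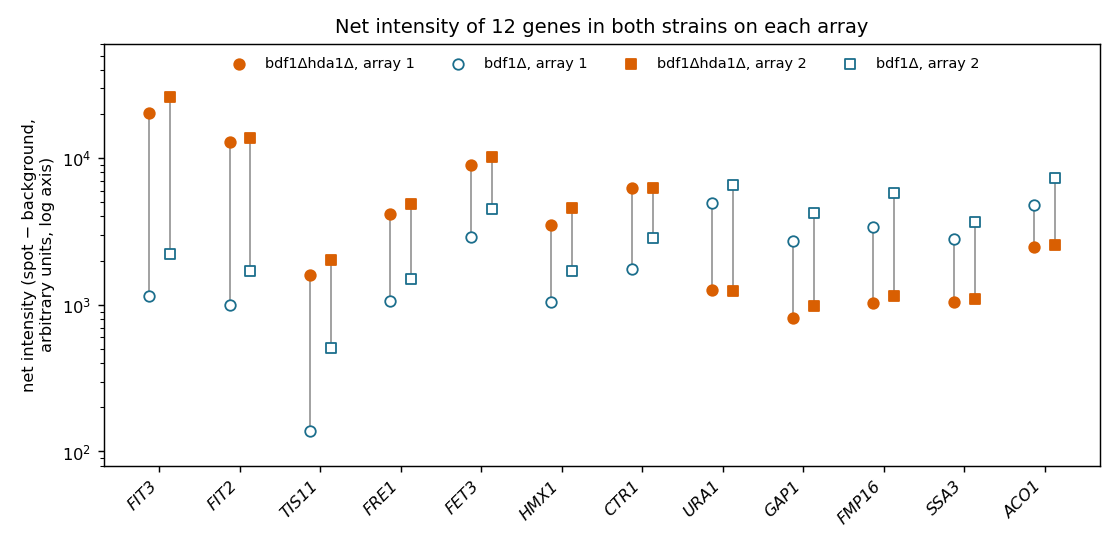
Net intensity (arbitrary units, log axis) of 12 genes in bdf1Δhda1Δ (filled) and bdf1Δ (open) on array 1 (circles) and array 2 (squares), each pair joined by a line. For the 7 genes at the left bdf1Δhda1Δ is above bdf1Δ on both arrays, and for the 5 genes at the right it is below.

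General stress genes, those under Msn2 and Msn4 in many stresses, divided. Of 30 measured 24 were below 0, 4 were lower and 1 was higher, with a median of −0.30. FMP16 (YDR070C) gave 1035.5 against 3386.5 on array 1 and 1149 against 5799 on array 2, a ratio of −1.87 ± 0.15. RCK1 (YGL158W), a protein kinase of the oxidative stress response, gave 546 against 1508.5 and 573.5 against 2097.5, a ratio of −1.43 ± 0.04. DDR2 (YOL052C-A) was at −1.35 ± 0.08 and PHM7 (YOL084W) at −1.01 ± 0.00. The higher member was RGI1 (YER067W), linked to growth on respiratory carbon, with 1533 against 455 and 1775 against 936.5 and a ratio of 1.14 ± 0.03. HSP12, a small membrane-protecting stress protein, differed little, at −0.07 ± 0.06.

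Of 11 Hsp70 family genes 1 was lower and the median was −0.13. SSA3 (YBL075C), a stress-induced cytosolic Hsp70, gave 1041 against 2813.5 on array 1 and 1095 against 3681.5 on array 2, a ratio of −1.49 ± 0.08. SSA4, the other stress-induced member, was at −0.87 ± 0.06, and its 144 control spots gave −0.93 and −0.74. The constitutive members SSA1 and SSA2 were at −0.13 and −0.17. Of 29 other chaperones only HSP30 (YCR021C), a plasma membrane protein, was called. It gave 1478 against 427 and 1704.5 against 697, a ratio of 1.22 ± 0.04, beside a list median of 0.04.

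Osmotic genes gave 2 lower members of 10 measured and a median of −0.08. AQY1 (YPR192W), a water channel, gave 383 against 1218 on array 1 and 254 against 1998 on array 2, a ratio of −1.84 ± 0.32. Its spots in bdf1Δhda1Δ were not above background on array 2. STL1 (YDR536W), the glycerol and proton symporter, gave 520 against 1198 and 604 against 1655, a ratio of −1.16 ± 0.15. GPD1, which makes the glycerol that balances salt, was at −0.57 ± 0.26 and did not pass. Of 13 genes for sodium, potassium and calcium transport none was called and the median was −0.05. The sodium pump genes ENA1 and ENA2 were at −0.57 ± 0.03 and −0.58, and since such near-identical copies can share a probe signal, their values cannot be assigned to 1 copy.

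Redox genes lay mostly above 0, at 14 of 19, with a median of 0.22 and 1 higher. That gene was GTT2 (YLL060C), a glutathione transferase, with 1190.5 against 275.5 on array 1 and 1364 against 445.5 on array 2 and a ratio of 1.5 ± 0.00. No spot was above background in bdf1Δ on array 1, so this spread is no measure of precision. OYE2, an NADPH oxidoreductase, was at 0.92 ± 0.10. Its relative OYE3 was called in the wider set at 1.93 ± 0.20, with 673 against −6 and 947.5 against 197. As bdf1Δ was not well above background for OYE3, the difference is given as at least 2.51-fold higher in bdf1Δhda1Δ. Of 9 multidrug transporters in the first set none was called, and the median was 0.27. In the wider set 10 of 18 were above 0 and 8 below, with a median of 0.04. The drug and boron exporter ATR1 was higher in the wider set, with 895 against 68.5 and 1296 against 426 and a ratio of 1.69 ± 0.00. None of its spots was above background in bdf1Δ on array 1, so this spread is no measure of precision.

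Ergosterol synthesis, the sterol pathway whose oxygen-using steps need haem and iron, had all 21 measured genes above 0 but none called. Their median was 0.59, or 0.49 by print-tip loess, and they ran from HMG2 at 0.02 to ERG10, the first enzyme of the pathway, at 0.98 ± 0.05. ERG10 gave 4646.5 against 1936.5 on array 1 and 4834.5 against 2725 on array 2, and ERG13 gave 7450.5 against 3750 and 9547.5 against 5700.5 for a ratio of 0.89 ± 0.12. In all measured genes, 51.54% were above 0. The 12 phosphate starvation genes measured in the first set were also all above 0, with a median of 0.36 and the highest value, 0.88, in the sodium and phosphate cotransporter PHO89. In the wider set 16 of 21 were above 0, with a median of 0.29. The 6 sulphate assimilation and methionine genes were all above 0 with a median of 0.36 in the first set, but in the wider set 12 of 19 were, with a median of 0.15.

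Glycolysis, storage carbohydrate and hexose transport genes gave no call in the first set. With gluconeogenesis and fermentation, the glycolysis list had 20 of 23 genes above 0, a median of 0.21 and ADH1, alcohol dehydrogenase, highest at 0.47. PDC6, a minor pyruvate decarboxylase, was higher in the wider set at 1.11 ± 0.04, with no spot above background in bdf1Δ on array 1. Over 13 genes of trehalose and glycogen metabolism the median was 0.07, with values from TSL1 at −0.97 ± 0.00 to GSY1, a glycogen synthase, at 0.81. TSL1, a subunit of the trehalose synthase complex, gave 7344 against 12986.5 and 6650.5 against 17489.5. Hexose transport genes of the first set ran from HXT5 at −0.99 ± 0.34 to HXT3 at 0.39. In the wider set the highest member of that list was at 1.36, with a list median of 0.06 and none called.

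Protein synthesis and turnover genes were near 0 and none was called. The 136 cytosolic ribosomal protein genes had a median of −0.00 and ran from −0.30 to 0.38. The 34 proteasome genes had a median of −0.02. Of 45 ribosome biogenesis genes 41 were below 0, but by small amounts, with a median of −0.15 and a lowest value of −0.41. The 11 genes of the vacuolar ATPase had a median of 0.09.

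**Figure D4:**
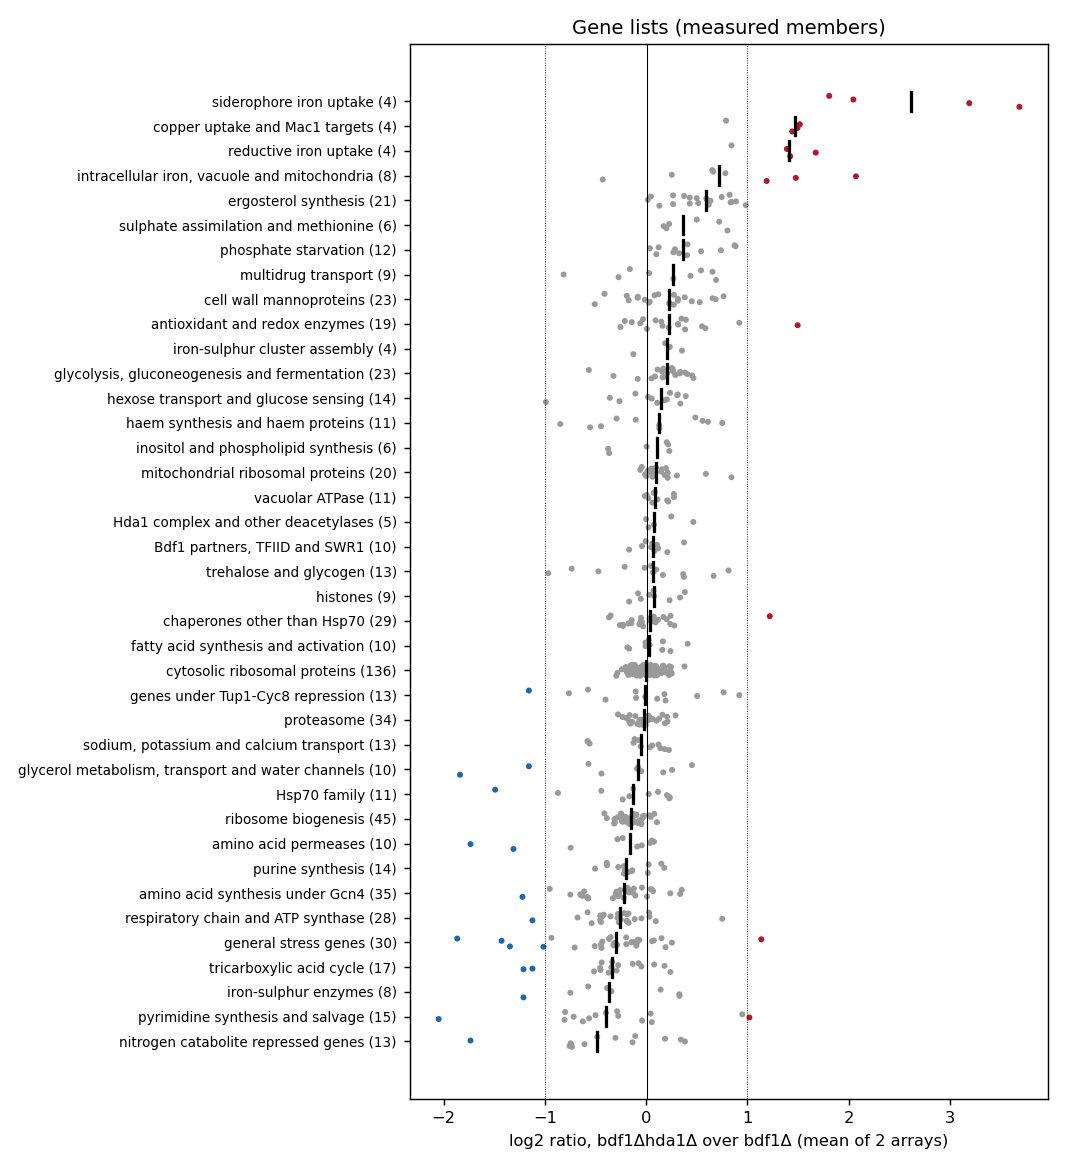
Mean log2 ratio of bdf1Δhda1Δ over bdf1Δ for the measured members of each gene list (number measured in parentheses), ordered by the list median (black bar), with red for genes called higher and blue for genes called lower. The first set is shown, in which the siderophore, copper and reductive iron lists stand at the top with medians of 2.62, 1.47 and 1.41, and nitrogen catabolite repressed genes at the bottom with −0.48.

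Genes tied to the deleted factors by function were counted beside the shares of all measured genes. Those shares were 1.06% higher and 0.627% lower in the first set, and 0.773% and 0.279% in the wider set. Of 13 measured genes under Tup1-Cyc8 repression 1 was lower, STL1, none was higher, and the median was −0.01. Of 20 in the wider set 1 was higher and 1 lower, and the median was 0.12. Other deacetylases and their partners had a median of 0.08 over 5 genes, and Bdf1 partners in TFIID and SWR1 a median of 0.07 over 10 genes. Histones had a median of 0.07 over 9 genes. None of these genes was called, which says little in lists this short. Of the a-specific mating genes 3 were measured in the first set, with a median of −0.40, and no alpha-specific gene was measured in either set.

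Position was read from gene order in the R64 table. Of the 10 outermost genes at each end of the 16 chromosomes, 320 in all, 67 were measured in the first set. Of these 2 were higher (REE1 and GTT2) and 2 were lower (URA1 and STL1), 2.99% each, against 0.991% higher and 0.574% lower among the other 1917 genes with a locus tag. The median was −0.21 for the outermost genes and 0.01 for the others. There were 148 outermost genes measured in the wider set, of which 5 were higher and 2 lower, 3.38% and 1.35%, against 0.676% and 0.256% of the other genes there. The medians were −0.03 and 0.00. The 3 further higher genes there were FRE2, FET4 and GDH3. Seripauperins, a family at chromosome ends with near-identical copies, had 17 members measured in the wider set with none called and a median of 0.09. For 47 called genes with a locus tag, 52 pairs with a measured direct neighbour could be formed, and in 2 of them, 3.85%, the neighbour was itself called, against 1.05% of all genes of the wider set. Both were FIT2 and FIT3, each the other's neighbour.

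The remaining higher genes of the first set fell on none of the lists of uptake or stress genes. TMA10 (YLR327C), a ribosome-associated protein, gave 4431.5 against 1455 on array 1 and 6005.5 against 2918 on array 2, a ratio of 1.27 ± 0.13. GID10 (YGR066C), a recognition subunit of a ubiquitin ligase, gave 1258 against 283 and 1775 against 743.5, a ratio of 1.37 ± 0.08. No spot of GID10 was above background in bdf1Δ on array 1. YOR385W was at 1.27 ± 0.06 and YNL134C at 1.06 ± 0.06. YPR123C, a reading frame of the array that is not in the R64 table, was at 1.57 ± 0.11, with 3685 against 923 and 3337.5 against 1287. Its systematic name is next to that of CTR1 (YPR124W), which was at 1.44 ± 0.24. Whether both probes share signal was not tested, so YPR123C may not be a separate higher gene.

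The remaining genes added by the wider set were dim. TIR3, a cell wall mannoprotein, gave 793.5 against −30.5 on array 1 and 1041 against 175 on array 2, a log2 ratio of 2.25 ± 0.25. As bdf1Δ was not well above background, it is given as at least 3.02-fold higher. GDH3, a glutamate dehydrogenase, and PRM7 were at 1.35 ± 0.38 and 1.47 ± 0.06, at least 1.76-fold and 1.74-fold higher on the same ground. The transcription factor genes SMP1 and ACA1 were at 1.64 ± 0.30 and 1.34 ± 0.13. YEH1, a steryl ester hydrolase, was at 1.35 ± 0.27, THI20 of thiamine synthesis at 1.30 ± 0.00 and YFL057C at 1.28 ± 0.12. In bdf1Δ none of these 5 genes had a spot above background on array 1, where the net intensity was −18 for SMP1 and −18.5 for THI20. Their ratios there rest on the offset of the background correction, and the spread between arrays is no measure of their precision. ARN1, FRE2, ATR1 and PDC6 had no such spot in bdf1Δ on array 1 either, nor did TIS11, FRE7, GTT2 and GID10 of the first set. The same limit holds for the spread of all these genes. In none of the 14 genes added by the wider set were both strains above background in at least 2 spots on both arrays. That was the case for 16 of the 22 higher and 12 of the 13 lower genes of the first set.

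The 35 called genes were set beside the other comparisons, which share bdf1Δ with this one, so the values are given without a measure of likeness. In bdf1Δ+HAL2 over bdf1Δ the siderophore genes FIT3, FIT2, ENB1 and SIT1 were at 2.75 ± 0.35, 1.69 ± 0.54, 1.42 ± 0.10 and 1.14 ± 0.01. The reductive genes FRE1, FET3 and FTR1 were at 1.55 ± 0.17, 1.46 ± 0.08 and 1.34 ± 0.17 there. The values of these 7 genes there ran from 1.14 to 2.75. TIS11 and HMX1 were at 0.64 ± 0.07 and 0.54 ± 0.12 there, and REE1 at −0.35 ± 0.35. Of the genes higher in bdf1Δhda1Δ, also below 0 there were RGI1 at −1.16 ± 0.11, YOR385W at −1.06 ± 0.27 and TMA10 at −0.82 ± 0.06. GID10 was at −0.56 ± 0.19 and URA8 at −0.01 ± 0.13 there, while CTR1, FRE7 and YPR123C were not measured. Among the genes lower in bdf1Δhda1Δ, GAP1 was at 0.65 ± 0.11 and URA1 at 0.58 ± 0.19 in bdf1Δ+HAL2, while RCK1 was at −2.03 ± 0.19 and FMP16 at −1.34 ± 0.17. No test of these differences was possible with 1 replicate per comparison.

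On the single array of bdf1Δ over W303, where bdf1Δ exceeded background in 36.9% of gene spots and 35.8% of the variance lay between printing blocks, URA1 was at −2.11, ARG1 at −1.77 and RGI1 at −2.85. FIT3 was at 0.10 there, FIT2 at −1.23 and ENB1 at −1.05. CTR1 was at 1.92, REE1 at 1.64 and FRE1 at 1.53. CTR1 and REE1 were the highest, and RGI1 the lowest, of the 35 called genes measured on that array.

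**Figure D5:**
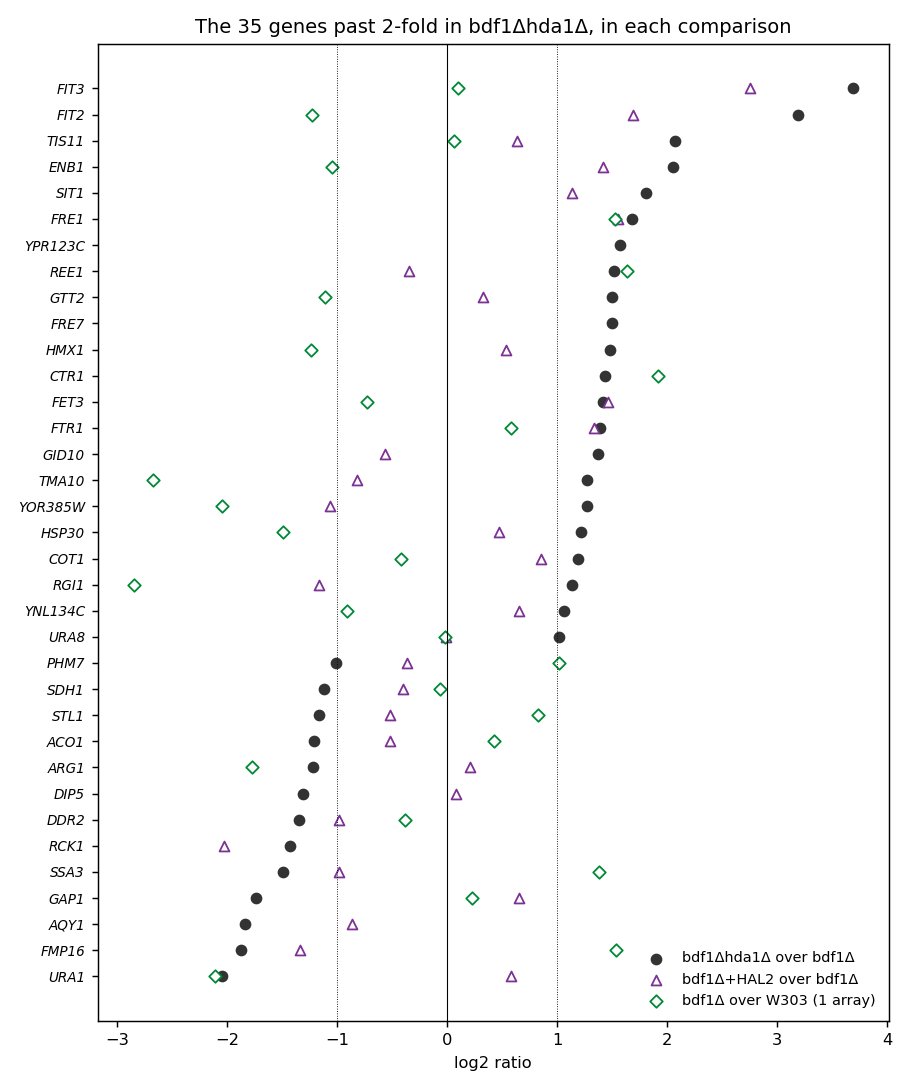
Log2 ratio of the 35 called genes in bdf1Δhda1Δ over bdf1Δ (filled circles), bdf1Δ+HAL2 over bdf1Δ (triangles) and bdf1Δ over W303 (diamonds, 1 array), each gene 1 row, with no symbol where a gene was not measured. The uppermost iron genes have triangles to the right of 0, while TMA10, YOR385W and RGI1 have triangles and diamonds to the left.

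Over all 5 arrays, 1929 genes were measured on each, and the genes nearest in log2 ratio were found by Euclidean distance. Nearest to FIT3 were FIT2 at a distance of 2.14, ENB1 at 3.23 and FRE1 at 3.61. Nearest to URA1 were ARG1 at 1.33, BNA1 at 2.06 and ILV2 at 2.09. BNA1, of NAD synthesis, was at −0.62 and −0.90 on the bdf1Δhda1Δ arrays, and ILV2, of branched-chain amino acid synthesis, at −0.67 and −0.59. Nearest to GAP1 were GLN1 at 1.45, the amino acid exporter AQR1 at 1.49 and URA4 at 1.54.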

How the data were processed

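The scanner files hold spot and local background intensity in a red (635 nm) and a green (532 nm) channel, per the file headers. Another deposited table gives linear ratios by probe, computed by the authors. Across genes it correlated at r = 0.955 and 0.936 on the pair of arrays with the log2 values described here, in the direction test strain over bdf1Δ, and it served only as an alternative. Per the labels, RNA was amplified linearly before labelling. The software that read the images is not given in the sources used here, nor is a genome build, so no coordinates are printed.

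Background medians were removed from spot medians by normexp (offset 50), followed by global loess on each array alone (limma 3.58.1, R 4.3.3). Control spots and spots marked −100 had weight 0. The mark was taken to mean not found, since no source explains it, and other spots carry 100. The sign was turned on array 2. Spots needed 1 channel at least 2 background SDs over background, and a gene's value is the mean of its used spots, with 2 of 3 needed on each array. Such a filter lets a gene in through the strain where it is bright. The wider set kept spots marked −100 and was normalized anew. "Not well above background" means that fewer than 2 of 3 spots exceeded background in a strain on both arrays. "At least" divides the mean level of the brighter strain by the dim level or, if higher, by the lowest level still above background. Scripts were tested on simulated data, and other steps ran in Python 3.11.15 with NumPy 2.4.6, pandas 2.3.3 and matplotlib 3.10.9.

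Locus tags of the R64 table were found for 5849 of 6388 gene probes, not for 539. Precision is limited throughout by the small number of arrays. The arrays and gene lists were chosen with earlier results of these data known. Genes were named by rule: all called genes, the targeted genes and their partners, the highest and lowest member of each list, all iron and copper genes, and the genes nearest to FIT3, URA1 and GAP1. Further members named as examples were chosen after their values were seen.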

Additional observations from a re-analysis of the deposited data

How the results depend on the processing

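The counts of 22 higher and 13 lower genes stayed within 1.5 times under print-tip loess, median centring, scaling between arrays, plain or no background subtraction, no filter on dim spots, both strains required above background, the median of repeat spots and the authors' deposited ratios. Keeping spots marked as not found gave 36 higher genes. In the wider set, requiring both strains above background left 16 of the 36. With 1 array left out, the counts ran from 23 to 27 higher and 15 to 16 lower, and in the wider set from 44 to 51 and from 16 to 18. A call needs both arrays, so leaving out 1 could only add calls. These counts therefore say nothing on how stable the calls are. Of the 35 called genes 25 stayed called under every one of the other settings that could measure them. The other 10 (STL1, RGI1, URA8, SDH1, ACO1, YNL134C, DDR2, ARG1, PHM7 and COT1) lost the call under at least 1, and the cause was not tested. Of the 108 genes compared 35 were called, and none of these changed sign. The sizes of the ratios did change. Under the authors' deposited ratios 67 genes moved by more than the spread between the arrays and 40 did not. Under plain background subtraction 50 did and 58 did not. With the deposited ratios FTR1 went from 1.39 to 1.93 and HMX1 from 1.48 to 1.97, while URA1 went only from −2.05 to −2.06. Without background subtraction TIS11 went from 2.07 to 1.65 and ENB1 from 2.05 to 1.68. Genes near 0 that were not called could change sign, such as MRP20 from −0.06 to 0.06 with array 1 left out. Of 30 lists with a median of at least 0.10 from 0, only that of the auxotrophic markers changed sign, from 0.45 over 2 genes to −0.02 over 6 with spots marked as not found kept. No paired analysis was possible because the results come from no test and the 2 arrays repeat 1 pair of RNA samples. The search for promoter motifs was not run, as no promoter sequences were at hand. Dim spots limit the low side of ratios, above all for bdf1Δ on array 1.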
